A study of Mus musculus with 4 samples.

Results

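Neurotrophins are small secreted growth factors of neurons, and 7 genes of this family, its receptors and their partners were examined in the hippocampus of mice after social defeat. The genes were Bdnf, Ntf3, Ntrk2, Ntrk3, Ngfr, Sort1 and Kidins220, chosen by name. Of these 7, the 6 other than Ntf3 had an array row that the platform annotation assigned to a single gene symbol, and each had 1 such row, out of 21789 such rows for 19938 genes. RNA came from the dissected hippocampus of male C57BL/6JJmsSlc mice aged 11 to 12 weeks, with 1 Affymetrix Mouse Gene ST array for each of 4 samples. The 2 R-SDS mice had undergone repeated social defeat stress, in which each met an aggressive ICR male for 10 min a day over 10 days and was otherwise kept beside one behind a divider. The 2 Control samples came from mice that were of the same strain, sex and age and that lived in pairs across a divider without defeat, and the labels name no transgene or drug. The study describes its R-SDS arrays as coming from mice that avoided an unfamiliar ICR mouse, a class that the sample labels do not give. By its schedule the mice were isolated before defeat and had social interaction and sucrose preference tests after it. The hippocampus was collected some days after the last defeat, so the values do not show the response at the time of defeat.

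Neurotrophins are made as precursors (proneurotrophins) that proteases cut to the mature factor. Mature BDNF and neurotrophin 4 bind the receptor tyrosine kinase TrkB (gene Ntrk2) and neurotrophin 3 binds TrkC (Ntrk3), which signal through RAS and MAP kinases, PI3 kinase and phospholipase C gamma. The uncut precursors bind the p75 receptor (Ngfr) together with sortilin (Sort1), a pair better known for signals of cell death and for pruning of axons and synapses. Kidins220, also called ARMS, is a large membrane scaffold that binds both Trk receptors and p75. In the hippocampus BDNF is made by excitatory neurons in response to activity and is known for its part in synaptic plasticity and in the action of antidepressants.

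Values are log2 RMA values, the scale on which the deposited table gives the brightness of a row, so that a difference of 1 is a doubling. The 4 arrays correlated at 0.988 to 0.996 over the single-symbol rows. How widely an array's values spread went with the replicate number of its title rather than with defeat, with interquartile ranges of 3.34 and 3.37 in Control 1 and R-SDS 1 against 3.06 and 3.11 in Control 2 and R-SDS 2. For this reason the differences of the genes described are also given within each number, first R-SDS 1 against Control 1 (number 1) and then R-SDS 2 against Control 2 (number 2). Neuronal markers were bright in all arrays, and the dimmest of the 8 measured (Tubb3) had a mean of 7.71. Markers of choroid plexus, the epithelium that makes cerebrospinal fluid, differed far more between arrays, with 9 of 9 measured genes higher within number 1 and 3 of 9 within number 2. Their summed linear level was 3190 (Control 1), 538 (Control 2), 13200 (R-SDS 1) and 791 (R-SDS 2). Ttr was the brightest of them in every array and weighed most in these sums, at 11.38 (Control 1), 7.43 (Control 2), 13.21 (R-SDS 1) and 8.79 (R-SDS 2). The median difference of the 9 markers was 2.32 within number 1 and -0.0954 within number 2. The same sum for meningeal fibroblast markers ran from 1410 to 1620 in Control and from 1540 to 2510 in R-SDS arrays. That list includes Igf2, described below, at 8.80 (Control 1), 8.29 (Control 2), 10.07 (R-SDS 1) and 8.37 (R-SDS 2). Sums for the remaining cell types were closer between the groups, at 22400 to 23600 and 22400 to 24300 for neurons, 2350 to 2810 and 2520 to 2970 for CA1 and 3380 to 3480 and 3310 to 3410 for CA3 and CA2 pyramidal neurons. They were 6590 to 7990 and 6550 to 7690 for oligodendrocytes, 1230 to 1400 and 1350 to 1420 for microglia, and 1400 to 1670 and 1590 to 1880 for vessel cells. In whole tissue, fewer cells of a type and less RNA per cell cannot be told apart.

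The array does not separate the alternative transcripts of these genes. The Bdnf row is annotated with 11 curated RefSeq transcripts, and the RefSeq promoter table of GRCm38.p6 holds 7 windows for Bdnf, each of 300 bases (250 before a transcript start and 50 after it). They were searched for TGACG on either strand, the core of the cAMP response element that the activity-regulated factor CREB binds and a part of the full site TGACGTCA. Of the 7 Bdnf windows, 1 held the core and 0 held the full site, while 20.8% of all 32851 windows held the core and 1.79% the full site. Windows were also listed for Ntrk2, Ngfr and Kidins220 (3 in all), of which 0 held the core. A match of letters is a description and no evidence of binding. The first window in genome order and the window with the core are printed here because the array gives 1 value for all annotated Bdnf transcripts, whichever start they use. Capitals mark the core, which appears as its reverse complement and begins 35 bases before the start (position -35).
Bdnf first window, chr2:109674450-109674749, plus strand: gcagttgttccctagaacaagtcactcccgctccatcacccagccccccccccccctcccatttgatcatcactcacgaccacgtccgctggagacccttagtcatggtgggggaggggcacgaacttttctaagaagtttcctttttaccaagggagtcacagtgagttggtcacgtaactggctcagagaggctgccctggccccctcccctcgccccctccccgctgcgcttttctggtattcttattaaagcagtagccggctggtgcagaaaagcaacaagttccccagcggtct
Bdnf window with the core, chr2:109692186-109692485, plus strand: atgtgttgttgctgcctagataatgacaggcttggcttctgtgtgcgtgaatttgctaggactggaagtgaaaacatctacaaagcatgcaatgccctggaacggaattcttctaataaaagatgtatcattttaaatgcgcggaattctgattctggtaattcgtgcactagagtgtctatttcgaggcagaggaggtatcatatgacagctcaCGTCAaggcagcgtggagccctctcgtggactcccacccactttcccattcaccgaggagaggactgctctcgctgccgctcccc

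The comparison asked whether defeat stress changed the hippocampal transcripts of neurotrophins and their receptors. None of the 6 measured genes passed any threshold, and the groups overlapped for all 6 (0 of 6 not overlapping), where 18.5% of all rows had both R-SDS values on 1 side of both Control values (9.41% above and 9.06% below). By limma with Benjamini-Hochberg adjustment over 21789 rows, 0 of 6 were called, against a background of 0.0% at the adjusted p of 0.05. In that fit 221 rows (1.01%) had an unadjusted p under 0.05, and the methods' t-test gave 440 such rows and 0 after adjustment. At the thresholds of the study (an unadjusted p under 0.05 and a log2 difference past 0.5) 0 of 6 were called, against 0.34% of all rows (0.147% higher and 0.193% lower). The group difference was above 0 for 4 genes and below 0 for 2. The median absolute difference of the 6 genes was 0.0444, compared with 0.0744 over all rows. The 95% intervals of limma reached from -0.439 at the lowest to 0.409 at the highest, or from 0.737-fold to 1.33-fold, so that each interval lay inside the log2 threshold of 0.5 that the study used. With the methods' t-test, which takes the spread from each gene alone, the intervals were narrower for Ntrk2 (-0.19 to 0.221) and Kidins220 (-0.0324 to 0.043), which lay inside 0.5, and wider for the other 4 genes, which did not (from -0.603 at the lowest to 0.565 at the highest). With 1 array left out, limma's intervals lay inside 0.5 for 2 to 4 of the 6 genes. With 2 arrays against 2, an exact two-sided permutation test cannot give a p below 0.333.

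**Figure D1:**
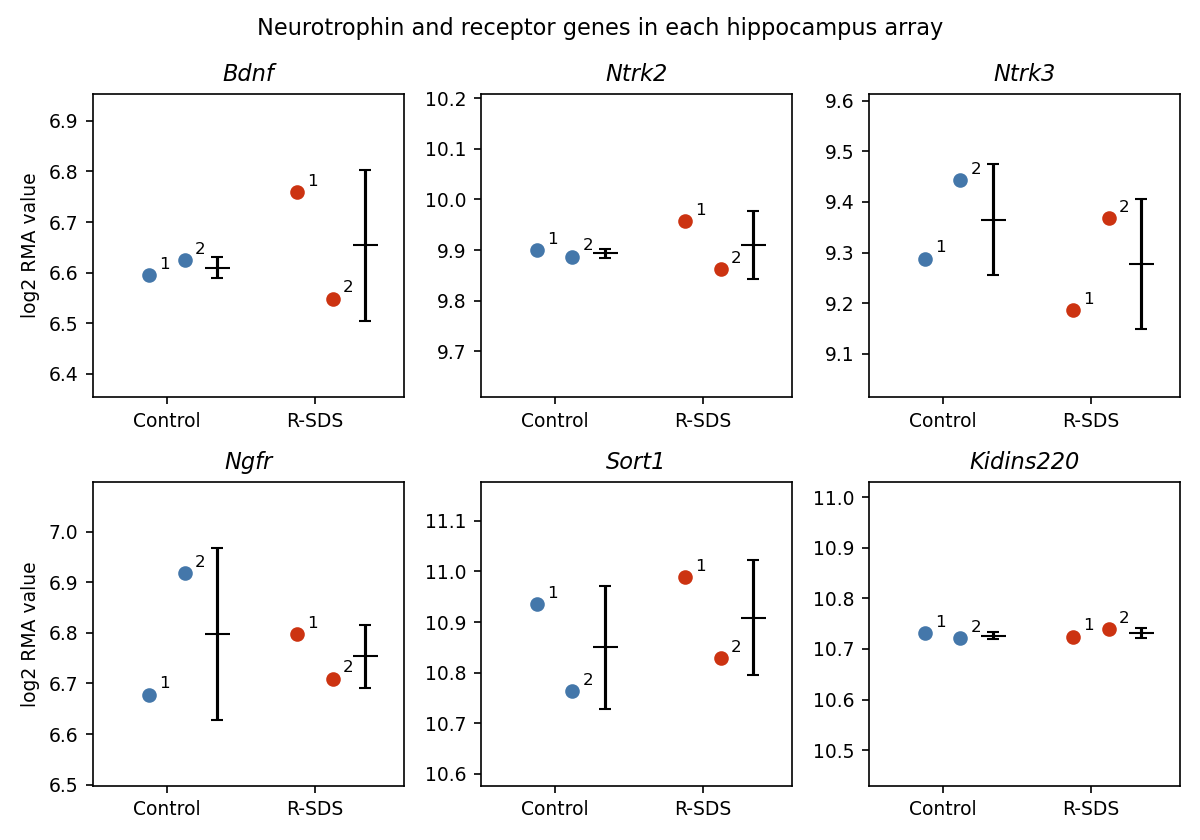
Log2 RMA value (vertical axis, 0.6 from bottom to top in every panel) of the 6 measured genes, where each point is an array with its replicate number and the black bars show group means and SDs (n = 2 per group). The groups overlap in every panel, Sort1 and Ntrk3 separate by replicate number in both groups, and the 4 values of Kidins220 lie within 0.0175.

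Of the ligands, Bdnf, which encodes brain-derived neurotrophic factor, measured 6.60 (Control 1), 6.62 (Control 2), 6.76 (R-SDS 1) and 6.55 (R-SDS 2). R-SDS 1 was thus the highest of the 4 arrays and R-SDS 2 the lowest, while the controls lay close together between them. The means were 6.61 ± 0.02 in Control and 6.65 ± 0.149 in R-SDS mice (SD, n = 2 each). The log2 difference of Bdnf was 0.0444 (SE 0.14, 95% interval -0.298 to 0.387), a ratio of 1.03, with an adjusted p of 1 in limma. Within number 1 Bdnf differed by 0.164 and within number 2 by -0.0752, and without R-SDS 1 the sign turned to -0.0608. Markers of dentate granule neurons, a hippocampal cell type that makes BDNF, are given beside it. Of these 6 markers, 6 were brighter on average after defeat (median difference 0.35), but 4 of 6 within number 1, where Prox1 (-0.113) and Calb1 (-0.102) were dimmer, and 6 of 6 within number 2. Their summed linear level was 1330 to 1530 in Control and 1550 to 1670 in R-SDS arrays. Their part in the Bdnf values was not tested.

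Ntf5, the mouse gene of neurotrophin 4 and so a further ligand of TrkB, is no member of the set and was measured beside it. It measured 5.46 (Control 1), 5.47 (Control 2), 5.67 (R-SDS 1) and 5.65 (R-SDS 2). Both R-SDS arrays lay above both controls, as in 9.41% of all rows, and the arrays of each group lay within 0.0204 of each other. For Ntf5 the log2 difference was 0.191 (SE 0.127, 95% interval -0.118 to 0.5), or 1.14-fold, and did not pass in limma (unadjusted p = 0.182, adjusted p = 1). It was 0.208 within number 1 and 0.174 within number 2, and the groups also did not overlap after a further quantile normalisation or median centring. With any 1 array left out the difference was between 0.181 and 0.201. Its sign could not change there, since the groups did not overlap. The methods' t-test gave an unadjusted p of 0.00402 and an adjusted p of 1. The row was dim, with 34.4% of rows dimmer, and its values carry no detection call.

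Of the Trk receptors, Ntrk2 (TrkB) measured 9.90 (Control 1), 9.89 (Control 2), 9.96 (R-SDS 1) and 9.86 (R-SDS 2). As with Bdnf, the R-SDS arrays were the highest and the lowest of the 4. The log2 difference of Ntrk2 was 0.0157 (SE 0.129, 95% interval -0.3 to 0.331; limma adjusted p = 1), with 0.0567 within number 1, -0.0254 within number 2 and -0.0317 without R-SDS 1. Its range over the 4 arrays was 0.0948, and 5.24% of all rows had a smaller one. Ntrk2 makes a full-length kinase receptor and truncated forms without the kinase, which glia also express. Its row is annotated with 3 curated RefSeq transcripts and gives 1 value for all of them. Of the astrocyte markers 7 of 8 were brighter on average after defeat, with a median difference of 0.127 and summed linear levels of 11100 to 12000 in Control and 11500 to 13000 in R-SDS arrays, and their part in the Ntrk2 values was not tested.

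Ntrk3 (TrkC) had the largest difference of the 6 genes. It measured 9.29 (Control 1), 9.44 (Control 2), 9.19 (R-SDS 1) and 9.37 (R-SDS 2). In both groups the array numbered 1 lay below the array numbered 2 (number 1 minus number 2 was -0.155 in Control and -0.182 in R-SDS mice), and the groups overlapped. Within a number the R-SDS array was lower both times, with differences of -0.102 and -0.0746. For Ntrk3 the log2 difference was -0.0883 (SE 0.144, 95% interval -0.439 to 0.263), or 0.941-fold, with an adjusted p of 1 in limma. It was 0.0028 without R-SDS 1.

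The scaffold gene Kidins220 had the smallest range of the 6 in the deposited values. It measured 10.73 (Control 1), 10.72 (Control 2), 10.72 (R-SDS 1) and 10.74 (R-SDS 2). Over the 4 arrays its values spanned 0.0175, and 22 of the 21789 rows (0.101%) had a smaller range. The span depended on the scaling, since it was 0.075 after a further quantile normalisation (3.69% of rows smaller) and 0.0599 after median centring (1.82% smaller), where Ntrk2 had the smaller ranges of 0.0486 and 0.0492. The log2 difference of Kidins220 was 0.00534 (SE 0.127, 95% interval -0.303 to 0.314; limma adjusted p = 1). Its sign was not stable, at -0.0107 after quantile normalisation, -0.00926 after median centring and -0.00183 without R-SDS 2.

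**Figure D2:**
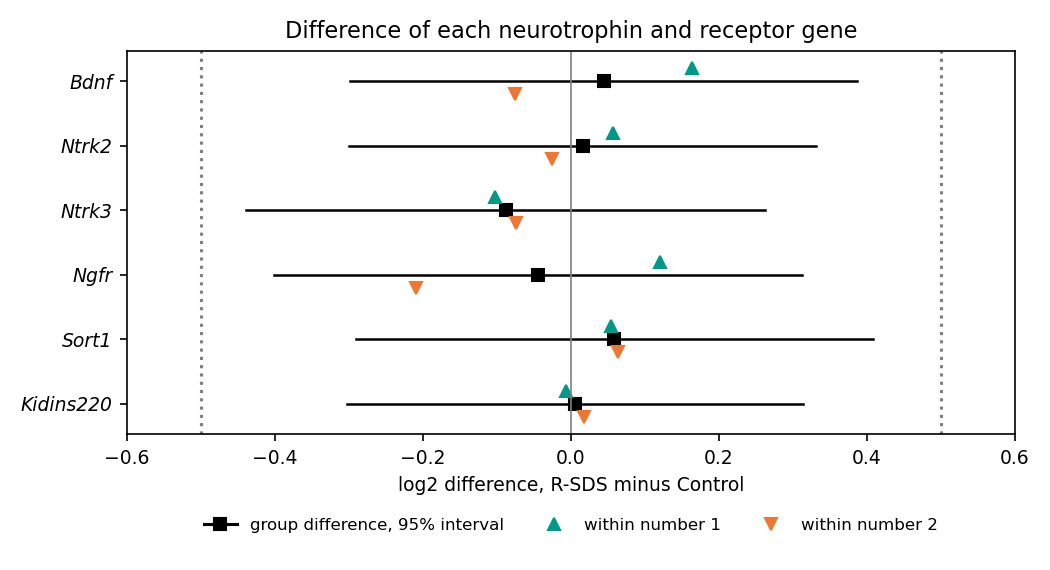
Log2 difference of R-SDS minus Control (horizontal axis) for the 6 measured genes, with the group difference and its 95% limma interval in black, the difference within replicate number 1 as a triangle pointing up and within number 2 as a triangle pointing down. Dotted lines mark the log2 threshold of 0.5 in either direction. The 2 triangles share a side of 0 for Ntrk3 and Sort1 and lie on opposite sides for the other 4 genes.

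Ngfr, the gene of the p75 receptor that binds all neurotrophins and, with sortilin, their precursors, measured 6.68 (Control 1), 6.92 (Control 2), 6.80 (R-SDS 1) and 6.71 (R-SDS 2). Both R-SDS arrays lay between the controls. The log2 difference of Ngfr was -0.0445 (SE 0.146, 95% interval -0.401 to 0.312; limma adjusted p = 1), a value smaller than the distance between the controls (-0.24, Control 1 minus Control 2). It was 0.12 within number 1 and -0.209 within number 2, and 0.0757 without Control 2. In the forebrain p75 is best known from cholinergic neurons of the basal forebrain, whose axons reach the hippocampus while their cell bodies lie outside it. The 5 markers of these neurons had summed linear levels of 152 (Control 1), 222 (Control 2), 155 (R-SDS 1) and 172 (R-SDS 2), and Chat, the acetylcholine-synthesising enzyme, was the dimmest of them with a mean of 4.56. Control 2 was highest in both Ngfr and this sum, and the part of these neurons in the Ngfr values was not tested.

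Sort1, which encodes the sorting receptor sortilin, measured 10.94 (Control 1), 10.76 (Control 2), 10.99 (R-SDS 1) and 10.83 (R-SDS 2). Here the array numbered 1 lay above the array numbered 2, by 0.171 in Control and 0.161 in R-SDS mice. Within each number the R-SDS array was slightly higher, by 0.054 and 0.0639. On the log2 scale Sort1 differed by 0.0589 (SE 0.143, 95% interval -0.291 to 0.409), or 1.04-fold, with an adjusted p of 1 in limma, and it turned to -0.0216 without R-SDS 1 and to -0.0266 without Control 2. After a further quantile normalisation the distance between the numbers fell to 0.0952 in Control and 0.0953 in R-SDS mice, and the differences within the numbers were 0.0457 and 0.0457. Sort1 and Ntrk3 were the 2 of 6 genes with 1 sign within both numbers, a property of 10899 of the 21789 rows.

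The proteins that cut and sort the precursors were examined as a list of 17 genes, of which 16 had a single-symbol row, 6 higher and 10 lower after defeat. The median of their log2 differences was -0.044 (0.0072 over all rows), and it was 0.00948 without R-SDS 2. By limma 0 of 16 were called at the adjusted p and 0 at the thresholds of the study. The groups did not overlap for 4 of the 16 (against 18.5% of all rows), all 4 of them lower (9.06% of all rows). After a further quantile normalisation they were 3 lower and 2 higher, since Pcsk7 then overlapped and Pcsk5 and Mmp7 did not. The share of all rows was not counted after that normalisation, so these numbers have no matching background. Of the 4 lower genes in the deposited values, 3 were Sorcs1, Sorcs2 and Sorcs3, receptors with the same VPS10P domain as sortilin. The remaining one was the convertase gene Pcsk7. Furin and Pcsk1, both of which cleave proneurotrophins, overlapped between the groups, as did Plat, the tissue plasminogen activator that acts through plasmin. Furin differed by 0.106 (0.202 within number 1 and 0.00932 within number 2), Pcsk1 by -0.0819 (-0.332 and 0.168) and Plat by 0.201 (0.0831 and 0.319).

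Sorcs1 measured 7.52 (Control 1), 7.56 (Control 2), 7.24 (R-SDS 1) and 7.25 (R-SDS 2). On the log2 scale Sorcs1 differed by -0.291 (SE 0.127, 95% interval -0.601 to 0.0188), or 0.817-fold, with an unadjusted p of 0.0612 and an adjusted p of 1 in limma. Sorcs2, a receptor known to pair with p75 in binding the BDNF precursor, measured 8.03 and 8.05 without defeat, 7.87 (R-SDS 1) and 7.83 (R-SDS 2), a difference of -0.19 (SE 0.127; limma adjusted p = 1). Sorcs3 measured 8.18 and 8.11 without defeat and 8.03 and 8.06 after defeat, a difference of -0.102 (SE 0.128; limma adjusted p = 1). Arrays of a group differed by at most 0.0675 for these 3 genes. The differences within number 1 and within number 2 were below 0 for each, at -0.274 and -0.308 for Sorcs1, -0.159 and -0.221 for Sorcs2, and -0.147 and -0.0569 for Sorcs3. Their groups also did not overlap after quantile normalisation or median centring, so their sign held there too. The sign could not change with 1 array left out, since the groups did not overlap, and the other alternatives left the differences unchanged. Without Control 1, the difference of Sorcs3 was -0.068. With the methods' t-test the unadjusted p was 0.0058 for Sorcs1, 0.0153 for Sorcs2 and 0.103 for Sorcs3, with adjusted p of 1. The fifth gene of the family, Sorl1, overlapped between the groups (-0.0589, SE 0.132; -0.153 and 0.0357 within the numbers), as Sort1 did. Sorcs3, Sorl1 and Pcsk7 were named after their values were seen.

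**Figure D3:**
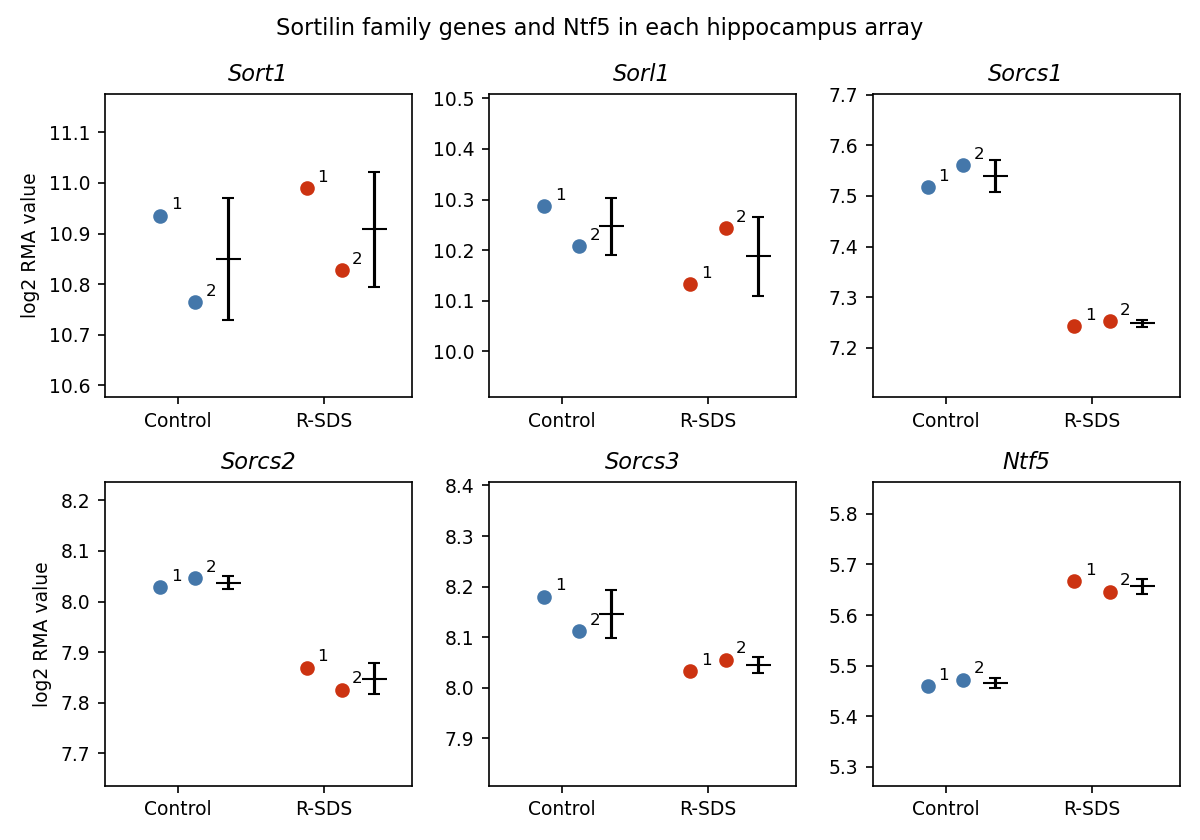
Log2 RMA value (vertical axis, 0.6 from bottom to top in every panel) of the 5 sortilin family genes and of Ntf5, where each point is an array with its replicate number and the black bars show group means and SDs (n = 2 per group). Both R-SDS points lie below both controls for Sorcs1, Sorcs2 and Sorcs3 and above both for Ntf5, while Sort1 and Sorl1 overlap.

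Genes that act next to the receptors showed small differences. Of 17 genes for partners of p75, 13 had a single-symbol row, with 7 higher, 6 lower, a median of 0.0104 and 0 called by limma. Irak1, a kinase of p75 and interleukin-1 receptor signalling, was the 1 whose groups did not overlap, with 7.20 and 7.19 without defeat and 7.15 and 7.08 after defeat (difference -0.0825, SE 0.128; -0.05 and -0.115 within the numbers). That is 7.69% of the list, against 18.5% of all rows. Of 48 genes of Trk signalling 39 had such a row, with 23 higher, 16 lower, a median of 0.00767 and 0 called. The groups did not overlap for 5 of the 39 (12.8%, against 18.5% of all rows). Among these, Camk4, a calcium-dependent kinase that phosphorylates CREB, measured 8.35 and 8.27 without defeat and 8.11 and 8.21 after defeat (difference -0.154, SE 0.132; -0.244 and -0.0644 within the numbers). Shc2, an adaptor that docks on Trk receptors, measured 6.32 and 6.25 against 6.41 and 6.45 (difference 0.146, SE 0.128; 0.0965 and 0.196 within the numbers). Creb1 itself overlapped between the groups (-0.0421, SE 0.132; -0.133 and 0.0488 within the numbers), and all 4 had an adjusted p of 1 in limma.

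Genes known to rise with BDNF, TrkB or CREB signalling were all measured, and 19 of 25 were brighter on average after defeat, with a median difference of 0.1 against 0.0072 over all rows. That median was -0.0483 without Control 2 and -0.0448 without R-SDS 1. By limma 0 of 25 passed the adjusted p. The groups did not overlap for 6 of the 25 (24.0%, against 18.5% of all rows), 5 of them higher and 1 lower. For 18 of 25 the array numbered 1 lay above the array numbered 2 in both groups (36.6% of all rows), and for 2 of 25 below it in both. Either direction held for 71.5% of all rows. The largest positive differences came from R-SDS 1. The zinc finger gene Egr2 measured 5.73 and 5.85 without defeat, 6.72 (R-SDS 1) and 5.76 (R-SDS 2), and the nuclear receptor gene Nr4a1 measured 8.70 and 8.46 against 9.47 and 8.58. Within number 1 they differed by 0.99 and 0.77, and within number 2 by -0.0987 and 0.124. Dusp5, a MAP kinase phosphatase, measured 7.30 and 7.27 without defeat and 7.78 and 7.37 after defeat, with a difference of 0.292 (SE 0.172; limma adjusted p = 1) that was 0.479 within number 1, 0.105 within number 2 and 0.0888 without R-SDS 1.

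Npas4 lay on the other side of 0. This activity-induced transcription factor, which is known to act on Bdnf promoters, measured 7.35 (Control 1), 6.77 (Control 2), 6.36 (R-SDS 1) and 6.59 (R-SDS 2). Both R-SDS arrays lay below both controls. Npas4 had a log2 difference of -0.586 (SE 0.219, 95% interval -1.12 to -0.0526), or 0.666-fold, with an unadjusted p of 0.0361 and an adjusted p of 1 in limma, and an unadjusted p of 0.2 in the methods' t-test. It was the 1 gene of all 112 measured on the 6 pathway lists past the thresholds of the study (0.893%, against 0.34% of all rows). The difference was -0.99 within number 1 and -0.182 within number 2, and -0.297 without Control 1 and -0.471 without R-SDS 1, where it no longer passed these thresholds. Bdnf was highest in R-SDS 1, where Npas4 was lowest, and lowest in R-SDS 2. The part of Npas4 in the Bdnf values was not tested.

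**Figure D4:**
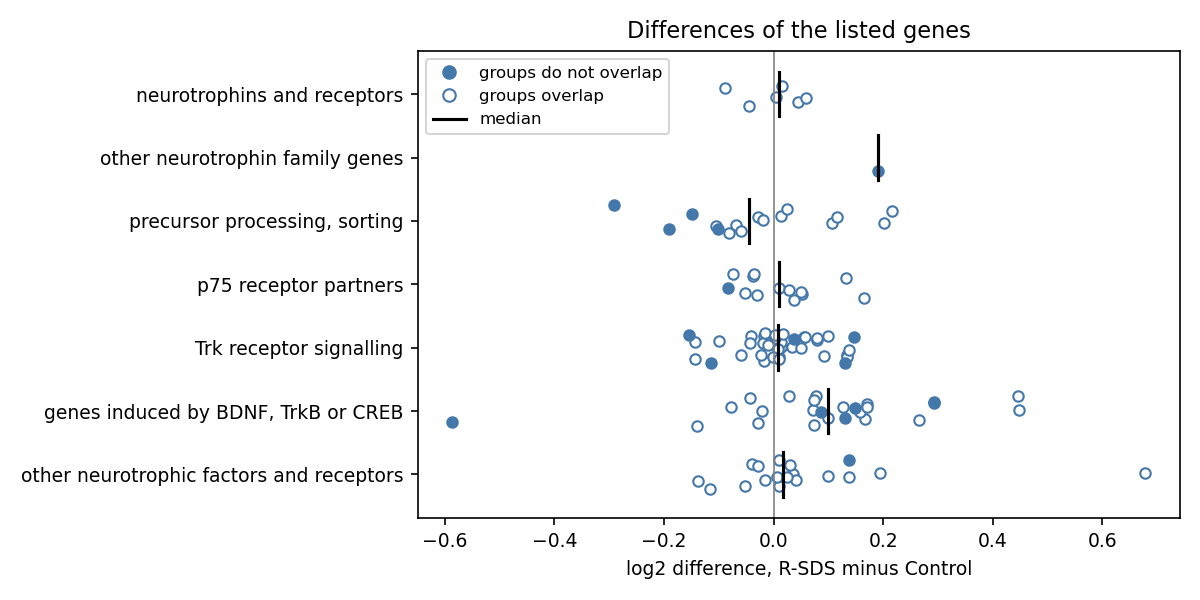
Log2 difference of R-SDS minus Control (horizontal axis) for each measured gene of the 6 neurotrophin and receptor genes and of the 6 pathway lists (rows), with filled points where the groups do not overlap, open points where they do, and a bar at the median of each list. Medians lie between -0.044 and 0.1 apart from that of the other neurotrophin family, which is the single gene Ntf5 at 0.191; Npas4 is the point at -0.586 and Igf2 the one at 0.678.

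Other neurotrophic factors and their receptors gave a similar picture, with 18 of 19 genes measured, 12 higher, 6 lower, a median of 0.0173 and 0 called by limma. Nrtn, a factor of the GDNF family, was the 1 whose groups did not overlap, at 6.29 and 6.34 without defeat and 6.46 and 6.45 after defeat (difference 0.137, SE 0.128; 0.173 and 0.102 within the numbers). That is 5.56% of the list, against 18.5% of all rows. Igf2, a growth factor made by choroid plexus and meninges, had the largest difference of the list, at 0.678 (SE 0.525; limma adjusted p = 1), with 1.27 within number 1 and 0.085 within number 2. It measured 8.80 and 8.29 without defeat, 10.07 (R-SDS 1) and 8.37 (R-SDS 2), so that the difference lay mainly in 1 array, the one in which the choroid plexus markers were also highest. Their part in the Igf2 values was not tested. Without R-SDS 2, which leaves 1 R-SDS array, the Igf2 difference was 1.53.

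**Figure D5:**
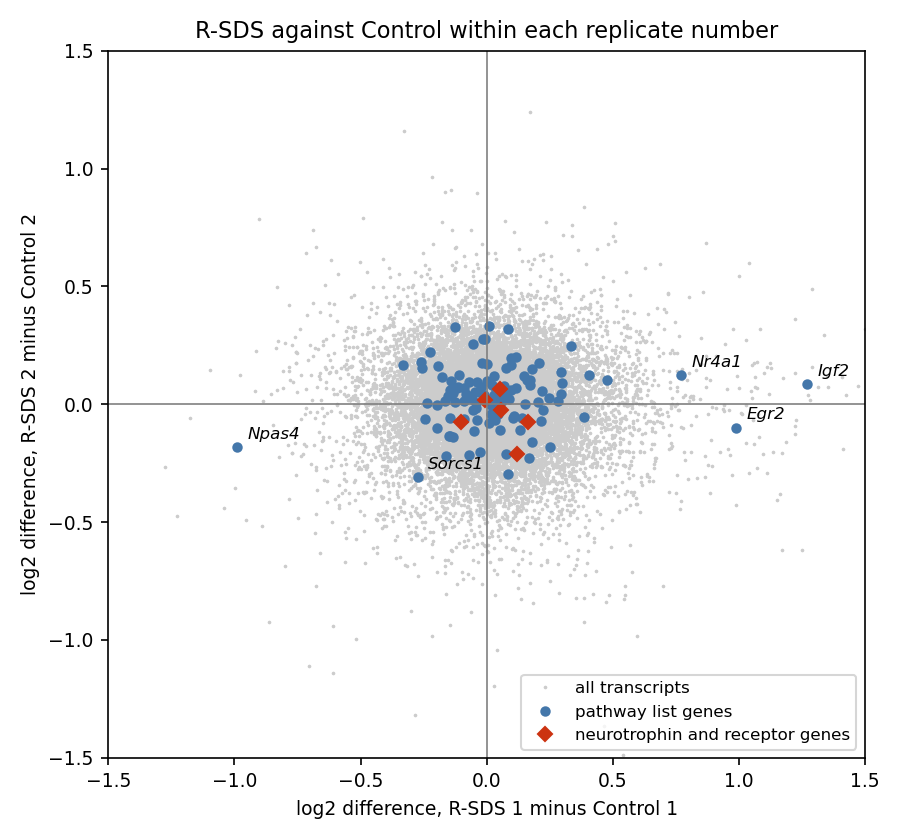
Log2 difference of R-SDS 1 minus Control 1 (horizontal axis) against R-SDS 2 minus Control 2 (vertical axis) for all single-symbol rows in grey, the pathway list genes in blue and the 6 neurotrophin and receptor genes as red diamonds; 35 rows lie outside the axes of 1.5 in each direction. The diamonds lie near the origin, while Igf2, Egr2, Nr4a1 and Npas4 differ mainly along the horizontal axis.

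For each of the 6 genes the most similar patterns over the 4 arrays were sought among 9653 genes of at least median brightness by the root-mean-square distance of values from their own means. Bdnf was nearest to Shisa2 (0.00735) and Prpf3 (0.00768), Ntrk2 to Ubl5 (0.0036) and Zfp395 (0.00494), and Ntrk3 to Cdk8 (0.00544) and the somatostatin gene Sst (0.00724). Sst measured 11.62 and 11.78 without defeat and 11.53 and 11.72 after defeat, the same step between the numbers as in Ntrk3. Ngfr was nearest to Tomm6 (0.00517) and Myoz3 (0.0188), Sort1 to Sgip1 (0.00183) and Usp46 (0.00439), and Kidins220 to Gpatch11 (0.00222) and Rabggtb (0.00222). These distances are a description over 4 arrays.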

How the data were processed

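Hippocampal RNA of 2 Control and 2 R-SDS mice was measured on Affymetrix Mouse Gene ST arrays. The authors normalised the arrays with RMA in Affymetrix Expression Console, and the deposited table holds log2 values, 1 column per array, with no detection call; how arrays were grouped for RMA and a genome build are not given in the sources used here. RMA subtracts background, quantile-normalises arrays and combines all probes of a transcript cluster, which narrows large differences of dim rows. The 4 columns did not have identical distributions. Sample titles gave the groups and replicate numbers. The study states that 2 mice were analysed in its R-SDS comparison, while the labels name no animals and do not say what a number marks. The p-values reflect only the spread among these 4 samples, and precision is limited by their number.

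Of 35556 rows, 21789 had 1 gene symbol, 1621 several and 12146 none in the platform annotation; 99.6% of Entrez identifiers matched RefSeq (GRCm38.p6) and 0 symbols changed. A gene was represented by its row with the highest mean. The group difference was fitted in limma 3.58.1 (lmFit, eBayes; 2 residual and 4.07 prior degrees of freedom) in R 4.3.3 without a filter, two-sided, adjusted over all rows by Benjamini-Hochberg; limma's intervals are at 95%. The methods' t-test is Student's unpaired test, which the methods of the study name. Tested on simulated data with 21789 rows, 8% of changes of log2 0.5 and 96% of changes of log2 1 were found at the adjusted p. The simulation drew independent normal noise from limma's moderated spread and left out the shared deviation of same-numbered arrays. Its shares therefore do not give the power of the 4 real arrays, where limma's smallest adjusted p over all rows was 0.264. The 6 pathway lists and 11 marker lists were written from known roles. Members, lists and alternatives were chosen with earlier results of these data known. Named from each pathway list were the 2 genes with the largest difference among those whose groups did not overlap. Furin, Pcsk1, Pcsk5, Pcsk7, Mmp7, Plat, Sorcs3, Sorl1, Creb1, Egr2, Nr4a1, Fosb and Igf2 were named beyond this rule. Marker levels are sums of linear values (2 to the power of the log2 value). Alternatives were a filter on dim rows, further quantile normalisation, median centring, eBayes with trend and robust settings, the methods' t-test, the replicate number as a block, the mean over the rows of a gene, and leaving out each array. Promoter windows are from RefSeq. Figures were drawn with matplotlib 3.10.9.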

Additional observations from a re-analysis of the deposited data

How the results depend on the processing

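The absence of calls among the 6 genes held in all 11 alternatives (0 of 6 at the adjusted p and 0 of 6 at the thresholds of the study); the lowest unadjusted p of a member was 0.359, for Ntrk3 with the block. Signs were counted for the members, the pathway genes named by the rule, Sorcs3 and Sorl1, and not for the other genes named. Of these pathway genes all but Sorl1 had groups that did not overlap, so leaving out 1 array could not change their sign. The filter, the eBayes settings, the t-test, the block and the mean over rows left the estimates unchanged. The count therefore does not compare the stability of members and pathway genes. Of 184 differences 175 kept their sign, and the 9 others were all among the members. These were, without R-SDS 1, Bdnf (-0.0608), Ntrk2 (-0.0317), Ntrk3 (0.0028) and Sort1 (-0.0216), without Control 2, Ngfr (0.0757) and Sort1 (-0.0266), and for Kidins220 -0.0107 after quantile normalisation, -0.00926 after median centring and -0.00183 without R-SDS 2. The cause was not tested. Over the 4 leave-one-out fits the differences ran from -0.0608 to 0.149 for Bdnf, -0.0317 to 0.0631 for Ntrk2, -0.179 to 0.0028 for Ntrk3, -0.165 to 0.0757 for Ngfr, -0.0266 to 0.144 for Sort1 and -0.00183 to 0.0125 for Kidins220. The medians of the 5 pathway lists of more than 1 gene each had both signs over these fits, widest for the genes known to rise with BDNF (-0.0483 to 0.245). With 1 array left out, groups overlap less often because fewer arrays are compared. Overlap of the members in these fits is therefore not read as a result.

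Rows past the thresholds of the study were 32 higher and 42 lower in the main comparison, 5 and 1 with the filter on dim rows (fewer rows tested), 6 and 13 with the methods' t-test, and 74 to 416 higher and 67 to 323 lower when 1 array was left out. At the adjusted p, 0 to 46 rows were higher and 0 to 3 lower when 1 array was left out. Each fit with 1 array left out sets 1 array against 2, so its spread comes from 1 group alone and its counts cannot be read as calls. Of the pathway genes, 1 passed the thresholds of the study in the main comparison and 0 with the methods' t-test.

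Same-numbered arrays deviated together (correlation 0.517 over 21789 rows), but with 2 pairs and no label on what a number marks, they share only a number. With the replicate block, limma counted 54 higher and 46 lower rows at the thresholds of the study and 1047 rows at an unadjusted p under 0.05, against 221 without it. Ntrk3 then had a limma adjusted p of 0.985 and Sort1 of 0.989, and 0 rows passed the adjusted p.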
